A study of Mus musculus with 15 samples.

Results

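The low-UMI barcodes of the Atg7-deleted microglia library are the cell barcodes with few RNA molecules in the single-cell library from mice that carried ATG7FF together with Cx3cr1CreER, called cKO here. A UMI is a molecular tag that counts 1 captured RNA molecule. A barcode was a member if it had at least 500 detected genes, at most 10% of its UMIs on genes of the mitochondrial genome (mt- genes) and under 2000 UMIs. The rule kept 1576 members of the 8874 cKO barcodes that met the gene and mt- limits, or 17.8% (95% Clopper-Pearson interval 17.0 to 18.6), and they held 4.66% of the UMIs of those barcodes. The other 7298 barcodes had 2000 UMIs or more and are called the rest of the cKO library. The members were chosen by their UMI count, number of detected genes and mt- share, so differences in these are a description of the rule. The genes Gm26917, Gm42418, Kcnq1ot1 and Dst were given as marking these barcodes from earlier results on the same data, and their levels are a description too.

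The cKO library came from microglia pooled from 4 forebrains of ATG7FF;Cx3cr1CreER mice, and the control library from microglia pooled from 3 forebrains of ATG7FF mice, which carried the floxed gene and no Cre. Every mouse was of the C57BL/6 strain, had been given tamoxifen (1.5 mg) when 2 months old, and was sampled 6 months later, at 8 months. A Percoll gradient and a sort for high CD11b with low CD45 enriched the microglia. Each genotype had 1 library, so no comparison has a replicate check and genotype cannot be told apart from library, preparation or pool. CreER was present in the cKO mice alone, so its presence cannot be told apart from the deletion, and the labels do not say in what share of the cells Atg7 was deleted.

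Atg7 encodes the E1-like enzyme that activates ATG8 and ATG12 family proteins, a step needed to build autophagosomes. Cx3cr1, whose regulatory sequences drive CreER in this line, encodes the fractalkine receptor of microglia, the resident macrophages of the brain. In a mammalian cell most messenger RNAs reside in the cytoplasm, whereas some long noncoding RNAs and unspliced transcripts stay in the nucleus. Malat1 is a nuclear speckle RNA, Kcnq1ot1 is a nuclear RNA transcribed antisense to Kcnq1 that silences its imprinted neighbours, and Dst encodes dystonin, a giant linker of the cytoskeleton. Droplet libraries prime on poly(A), and internal runs of A in a transcript can also be primed.

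Below is the longest internal run of A, in capitals, with 20 bases on each side, in the longest annotated transcript of 3 of the named marker loci and of Malat1, since these loci include the most abundant ones that were higher in members (GENCODE M21, GRCm38, transcript strand). Gm42418 is read from chr17:39847147-39847192 on the plus strand, Gm26917 from chr17:39845116-39845159 on the plus strand, Kcnq1ot1 from chr7:143226925-143227005 on the minus strand and Malat1 from chr19:5795968-5796019 on the minus strand.
Gm42418: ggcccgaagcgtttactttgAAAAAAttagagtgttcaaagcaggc
Gm26917: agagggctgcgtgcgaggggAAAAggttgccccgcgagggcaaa
Kcnq1ot1: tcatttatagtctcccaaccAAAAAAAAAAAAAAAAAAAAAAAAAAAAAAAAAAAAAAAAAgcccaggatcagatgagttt
Malat1: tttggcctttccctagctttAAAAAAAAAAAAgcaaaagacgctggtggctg
The longest run was 41 bases in Kcnq1ot1 and 12 bases in Malat1, against 6 bases in Gm42418 and 4 bases in Gm26917. Gm42418 (chr17:39846958-39848788) overlaps the RefSeq 18S ribosomal RNA pseudogene Rn18s-rs5 over 68.0% of its length, while Gm26917 (chr17:39843013-39846341) lies beside that pseudogene without overlapping it. The lincRNA AY036118 lies within both Rn18s-rs5 and Gm42418 on the opposite strand. Whether the counting used strand is not given in the sources used here, and a split of UMIs between these loci was not tested.

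The deposited cKO matrix held 9840 barcodes and 40701821 UMIs, and the control matrix 6633 barcodes and 9314315 UMIs. The control library was shallow throughout: 5732 of its 6243 barcodes that met the same limits, or 91.8%, had under 2000 UMIs. These are the control low-UMI barcodes, and they give a view of barcodes with a like UMI count in a library of another genotype and depth. Between the libraries 22 barcode sequences were shared, of which 2 were in members and 14 in the rest of the cKO library. No doublet caller was run and no doublets were removed.

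Members had a median of 1127 UMIs (648 to 1994) and 690 genes, against 4890 UMIs and 2191 genes in the rest of the cKO library and 1358 UMIs and 839 genes in the control low-UMI barcodes. After the gene and mt- limits, the cKO barcodes formed 2 modes in UMI count with a trough at 2000 UMIs. Without the gene limit, 836 cKO barcodes had 500 to 749 UMIs, 576 had 750 to 999, 746 had 1000 to 1499 and 289 had 1500 to 1999. The lower edge of the first mode is thus set by the gene limit. Around the UMI limit, 82 barcodes had between 1800 UMIs and the limit, and 53 had 2000 to 2200. Just inside the limit, ribosomal protein genes took 4.24% of UMIs and the 4 given markers 5.27%. Just outside it, the values were 4.68% and 5.03%. By these measures the barcodes on either side of 2000 UMIs held much the same mix, between the values of members and of the rest. Malat1 took 9.09% of UMIs just inside and 7.39% just outside, and mt- genes 1.72% and 2.11%.

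**Figure D1:**
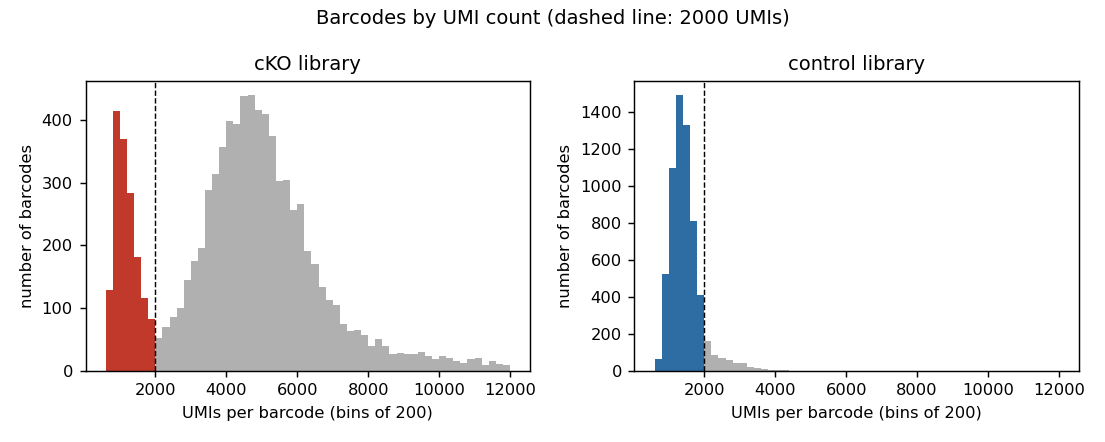
Number of barcodes (vertical axis) by UMIs per barcode in bins of 200 (horizontal axis, up to 12000) in the cKO library, left, and the control library, right, after the gene and mt- limits. Red bars are the 1576 cKO members, blue bars the 5732 control low-UMI barcodes and grey bars the barcodes with at least 2000 UMIs. After these limits the cKO library has 2 modes with the trough near the dashed line at 2000 UMIs, and the control library has 1 mode below it. The lower edge of the first cKO mode is set by the gene limit.

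The members carried microglial transcripts, at a lower relative level than the rest of the library. The 20 microglia markers together took 2.97% of the members' UMIs, against 6.49% in the rest of the cKO library and 7.21% in the control low-UMI barcodes. A member had a median of 12 of the 20 markers, and 1232 members (78.2%) had at least 10. To compare detection at equal depth, each barcode with at least 1000 UMIs was thinned to 1000 UMIs, which kept 1033 members and left out 543. All 7298 barcodes of the rest and 5144 control low-UMI barcodes were kept, with 588 controls left out. At that depth the median was 11 markers in members, against 17 in the rest and 17 in the control low-UMI barcodes.

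P2ry12, the purinergic receptor of homeostatic microglia, was detected in 78.6% of thinned members (95% interval 76.0 to 81.1), against 94.4% of the rest and 95.3% of the controls (84.8% of the same members, 99.7% and 98.1% without thinning). Tyrobp, the DAP12 signalling adaptor, was detected in 42.6% of thinned members, against 91.7% of the rest and 92.2% of the controls (49.6%, 99.4% and 95.8% without thinning). For 18 of the 20 markers the interval of members lay below that of the rest. Itgam, the CD11b chain, was at 44.7% in members and 44.4% in the rest, and the intervals of Sall1, a microglial transcription factor, overlapped at 26.4% and 29.9%. Intervals cover counting error only. The 871 cKO barcodes that failed the gene limit alone, with a median of 629 UMIs, had 2.61% of their UMIs on the same 20 markers, close to the 2.97% of members. Empty droplets were not analysed here, so the part of free RNA in these shares was not tested.

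Markers of other cell types were low in the sum over members, where the summed level of a list is given as CPM, counts per 1000000 UMIs of the population. None of the 10 T and NK cell markers had a UMI in members. Border macrophage markers summed to 10.2 CPM in members and 14.8 CPM in the rest, with 4 of 9 markers detected. Neutrophil markers summed to 3.75 CPM in members and 1.31 CPM in the rest, with 1 of 8 detected, and monocyte markers to 16.6 and 12.4 CPM. Endothelial markers summed to 93.7 CPM in members and 57.2 CPM in the rest, of which Pecam1 gave most, and neuronal markers to 20.9 and 13.4 CPM. Higher sums were seen for astrocyte markers, with 247 CPM in members and 181 CPM in the rest, of which Slc1a3, a glutamate transporter, gave 202 and 174 CPM. B cell markers summed to 213 CPM in members and 326 CPM in the rest, mainly Ighm, oligodendrocyte markers to 92.1 and 117 CPM, and platelet markers to 20.4 and 41.7 CPM. Erythrocyte markers summed to 6.43 CPM in members and 0.681 CPM in the rest, pericyte and smooth muscle markers to 2.14 and 0.524 CPM, and fibroblast markers to 0.536 and 0.131 CPM. Oligodendrocyte precursor markers summed to 38.6 CPM in members against 3.54 CPM in the rest. Ependymal and choroid plexus markers summed to 1134 CPM in members against 376 CPM in the rest, nearly all of it Ttr. The part of these cell types in the results below was not tested, other than by leaving out 12 barcodes as given with them.

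Over 7421 genes with at least 20 CPM in members or in the rest, 896 (12.1%) were at least 2-fold higher in members and 1123 (15.1%) at least 2-fold lower. The median gene lay 0.11 higher in members on the log2 scale, and 54.3% of genes were higher. The balance of the calls moved with the scaling. Shifting the ratios by the median gene gave 644 higher and 1365 lower. Gm42418, Gm26917, AY036118, Lars2 and Gm15564 were listed as overlapping or resembling ribosomal RNA repeats and are called rRNA-like loci here. Leaving mt- genes and rRNA-like loci out of the total gave 1176 higher and 979 lower, with the median gene at 0.22. A ratio of CPM is a share of the captured RNA, so a gene can be higher in share with fewer molecules per barcode.

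The same split of the control library gave few such differences. Of 6692 genes tested between the control low-UMI barcodes and the 511 control barcodes with at least 2000 UMIs, 3 (0.0448%) were at least 2-fold higher and 11 (0.164%) at least 2-fold lower, and 45.9% were higher by any amount. Among the genes measured in both splits, 0 of the 594 higher in members were higher by 2-fold in the control split, and 1 of the 1092 lower in members was lower by 2-fold there. The control split is not a like counterpart. Its limit cuts the upper side of 1 mode, and its UMI range is narrower, with medians of 1358 and 2423 UMIs. Control barcodes with under 500 UMIs, described below, were left out by the gene limit. Few calls there thus do not show what a split between 2 modes would give. Set directly against the control low-UMI barcodes, the members had 1161 of 7366 genes (15.8%) at least 2-fold higher and 1031 (14.0%) at least 2-fold lower, with the median gene 0.14 higher and 55.6% of genes higher. Of the 896 genes above the rest, 787 were also at least 2-fold above the control low-UMI barcodes, and of the 1123 below the rest, 907 were also at least 2-fold below them. These comparisons share the member barcodes.

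Malat1 was the most abundant transcript of the members. It took 10.8% of UMIs in members, against 4.14% in the rest and 4.25% in control low-UMI barcodes. Gm42418 took 7.42% in members, against 2.55% in the rest and 1.77% in control low-UMI barcodes. Gm26917, the gene with the highest ratio by its lower bound, had 558 CPM in members, against 111 CPM in the rest and 75.4 CPM in control low-UMI barcodes, a ratio to the rest of 5.03 (95% counting interval 4.69 to 5.38). Kcnq1ot1 had 1001 CPM in members, against 322 CPM in the rest and 283 CPM in control low-UMI barcodes. Dst had 920 CPM in members, against 318 CPM in the rest and 273 CPM in control low-UMI barcodes. The rest of the cKO library and the control barcodes lay near each other for all of these but Gm42418 and Gm26917, which were somewhat higher in the cKO rest.

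Of the other 11 genes among the 12 highest ratios, 7 were noncoding loci. Gm43221 (antisense, chr3), Gm43331 and Gm43466 (sense-intronic, chr3), Gm50012 (sense-intronic, chr17), 5830416I19Rik (lincRNA, chr5) and Gm32849 (lincRNA, chr7) had 54.6 to 141 CPM in members and 12.6 to 39.8 CPM in the rest. Firre, an X-linked nuclear lncRNA with repeats that tether chromatin, had 64.3 CPM in members, against 16.3 CPM in the rest and 11.8 CPM in control low-UMI barcodes. The protein-coding genes of the 12 were Fam193b, Pde1b, which encodes a calmodulin-dependent phosphodiesterase, Ttll3, a tubulin glycylase, and Klkb1, the plasma prekallikrein gene. Fam193b had 148 CPM in members, against 37.6 CPM in the rest and 32.9 CPM in control low-UMI barcodes. Klkb1 and 5830416I19Rik were less far from the controls, with 74.5 CPM in members against 46.7 CPM in control low-UMI barcodes and 58.9 CPM against 33.8 CPM.

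The 12 lowest ratios belonged mainly to genes of the cytosolic ribosome. They were the ribosomal protein genes Rpl29, Rps3, Rps14, Rps4x, Rplp1, Rplp2 and Fau, and Gapdh, Cst3, Mien1, Psmb5 and Cd52. Rpl29 had 145 CPM in members, against 585 CPM in the rest and 460 CPM in control low-UMI barcodes, so that it was 4.04-fold lower than in the rest (3.58 to 4.57). Gapdh, a glycolytic enzyme, was 4.02-fold lower, with 130 CPM in members, 523 CPM in the rest and 357 CPM in control low-UMI barcodes. Cst3, which encodes the secreted protease inhibitor cystatin C and is among the most abundant microglial transcripts, had 14428 CPM in members, against 47960 CPM in the rest and 60063 CPM in control low-UMI barcodes. Psmb5, a catalytic proteasome subunit, had 30.0 CPM in members and 130 CPM in the rest, and Cd52, a short surface glycoprotein, had 79.8 and 309 CPM.

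Gene lists of nuclear roles were higher in members as groups. All 20 splicing factors and nuclear speckle proteins were higher, 13 of them by 2-fold, with a median log2 ratio of 1.12 against 0.11 over all genes. Rbm25, a U1-associated splicing regulator, had 933 CPM in members, against 362 CPM in the rest and 359 CPM in control low-UMI barcodes. Ddx17, an RNA helicase, had 604 CPM in members, against 219 CPM in the rest and 192 CPM in control low-UMI barcodes. Luc7l3, a U1-related factor, had 295 CPM in members, against 112 CPM in the rest and 84.8 CPM in control low-UMI barcodes. Ddx5, an RNA helicase related to Ddx17, was the mildest of those named, with 1773 CPM in members, 1469 CPM in the rest and 2007 CPM in control low-UMI barcodes.

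All 7 measured nuclear long noncoding RNAs were higher in members, 5 by 2-fold, at a median log2 ratio of 1.21. The 71 measured lincRNAs of any kind had a median of 1.03, with 53.5% higher by 2-fold. All 16 large chromatin regulators were higher, 7 by 2-fold, at a median of 0.66. Protein-coding genes with over 8000 bases of annotated exons had a median of 0.77, with 29.5% higher by 2-fold. The part of gene length and gene class in the levels of the lists was not tested. Among them Atrx, a chromatin remodeller of heterochromatin, had 497 CPM in members, against 196 CPM in the rest and 210 CPM in control low-UMI barcodes, and Chd2, another remodeller, had 421 CPM, against 176 CPM and 188 CPM. All 6 measured genes of giant cytoskeletal linkers were higher, 5 by 2-fold, at a median of 1.30. Macf1, the microtubule and actin crosslinker related to dystonin, had 1522 CPM in members, against 600 CPM in the rest and 631 CPM in control low-UMI barcodes.

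Genes of cytoplasmic protein synthesis and respiration were lower in members as groups. Short protein-coding genes were low too: those with up to 1000 bases of annotated exons had a median log2 ratio of -1.42, with 70.1% lower by 2-fold. Without ribosomal protein and respiratory genes, those of 1000 to 2000 bases had a median of -1.13, with 59.0% lower by 2-fold. Over all genes 15.1% were lower by 2-fold. The part of gene length in the lower lists was not tested. All 79 measured cytosolic ribosomal protein genes were lower, 77 by 2-fold, at a median log2 ratio of -1.64, and together they took 2.40% of members' UMIs, against 7.51% in the rest and 6.51% in control low-UMI barcodes. Of 72 nuclear genes for respiratory chain and ATP synthase subunits, 71 were lower, 59 by 2-fold, at a median of -1.39. Cox6b1, a cytochrome c oxidase subunit, had 69.1 CPM in members, against 252 CPM in the rest and 222 CPM in control low-UMI barcodes. Of 16 translation factors, 15 were lower, 10 by 2-fold, at a median of -1.27, with Eef1a1, the elongation factor that delivers aminoacyl-tRNA, at 973 CPM in members, 2232 CPM in the rest and 1997 CPM in control low-UMI barcodes. All 15 abundant cytoplasmic genes of actin, ferritin and ubiquitin were lower, 13 by 2-fold. Tmsb4x, which encodes an actin-sequestering thymosin, had 3735 CPM in members, against 11653 CPM in the rest and 10454 CPM in control low-UMI barcodes.

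Transcripts of the mitochondrial genome went the other way from the nuclear genes of the same chain. All 13 were higher in members, 2 by 2-fold, and took 1.96% of UMIs, against 1.10% in the rest and 1.27% in control low-UMI barcodes. The rule capped the mt- share at 10%, so this is a description. mt-Co3, a cytochrome c oxidase subunit, had 3226 CPM in members, against 1606 CPM in the rest and 1908 CPM in control low-UMI barcodes. The mt- share varied among members, with a median of 1.43% and the middle 90% of barcodes between 0.0962% and 5.83%, against a median of 0.970% in the rest.

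**Figure D2:**
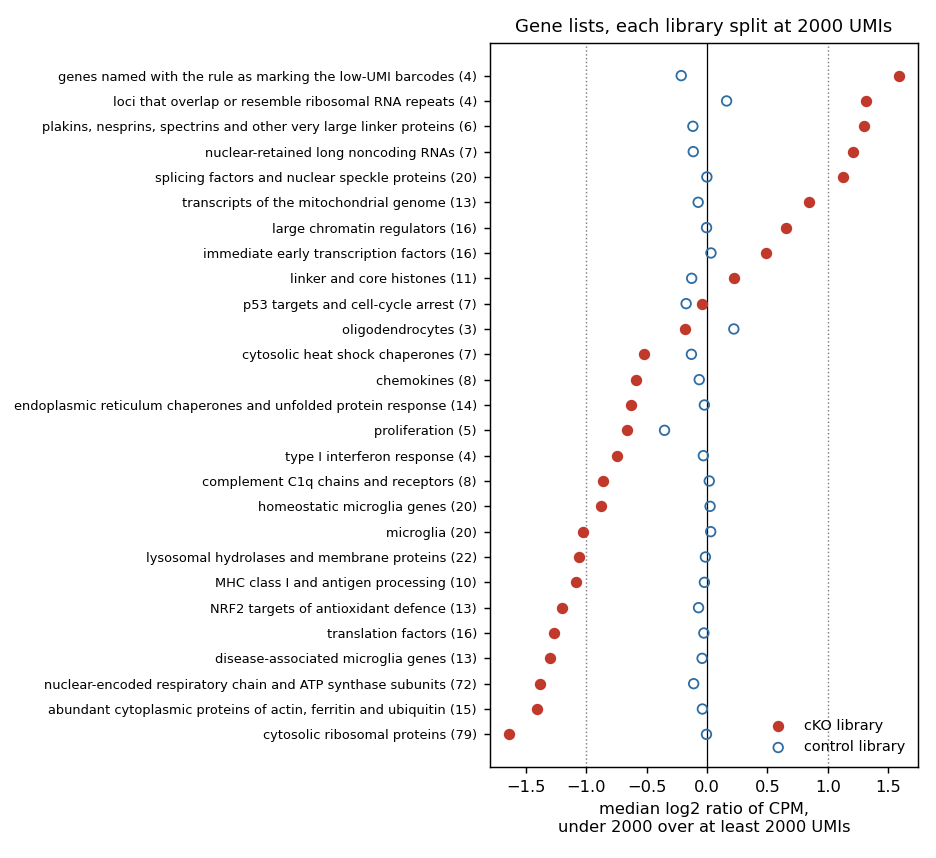
Median log2 ratio of CPM between barcodes under 2000 UMIs and barcodes with at least 2000 UMIs (horizontal axis), by gene list (vertical axis, with the number of genes tested in parentheses) for lists with at least 3 genes tested. Filled red points are the cKO library and open blue points the control library; dotted lines mark 2-fold. In the cKO library these lists spread between -1.64 for ribosomal proteins and 1.59 for the given markers, while the control library stays between -0.35 and 0.22.

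Microglial programmes were lower in members in share of UMIs. Over all genes 15.1% were lower by 2-fold. The part of gene length in the levels of the microglial lists was not tested. Of 20 homeostatic microglia genes 16 were lower, 6 by 2-fold, at a median log2 ratio of -0.88. Sparc, a secreted matrix protein, had 1098 CPM in members, against 2774 CPM in the rest and 3344 CPM in control low-UMI barcodes. Of 22 lysosomal genes 19 were lower, 12 by 2-fold, at a median of -1.06, among them Ctss, a cathepsin, with 2345 CPM in members, 6096 CPM in the rest and 6355 CPM in control low-UMI barcodes. Of 8 genes of complement C1q chains and receptors 6 were lower and 2 higher, at a median of -0.86. The 3 past 2-fold were the chains C1qa, C1qb and C1qc, which were 2.72 to 2.79-fold lower in members than in the rest.

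All 13 measured genes of the disease-associated microglia list were lower in members, 12 by 2-fold, at a median log2 ratio of -1.30. Tyrobp had 847 CPM in members, against 2881 CPM in the rest and 2832 CPM in control low-UMI barcodes. Of 10 genes of MHC class I and antigen processing 9 were lower, 6 by 2-fold. B2m, the light chain of MHC class I, had 635 CPM in members, against 1779 CPM in the rest and 1294 CPM in control low-UMI barcodes. Of 13 NRF2 targets of antioxidant defence 11 were lower, 9 by 2-fold, at a median of -1.21. Against the control low-UMI barcodes the NRF2 list had a median of -0.08, with 2 genes lower and 1 higher by 2-fold. Over all genes 14.0% were lower and 15.8% higher by 2-fold in that comparison, so these counts do not set the list apart. Fth1, the ferritin heavy chain, had 1087 CPM in members, against 2844 CPM in the rest and 2332 CPM in control low-UMI barcodes. Fewer calls were made among stress chaperones. Of 14 endoplasmic reticulum chaperones 10 were lower and 3 passed 2-fold, at a median of -0.63. All 7 measured cytosolic heat shock genes were lower with 1 past 2-fold. Over all genes 15.1% were lower by 2-fold, so the chaperone calls were near that share.

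Immediate early transcription factors were higher in members by a small margin. All 16 measured were higher, at a median log2 ratio of 0.49, and 1 passed 2-fold, Klf4, a zinc finger factor, with 77.1 CPM in members, 35.4 CPM in the rest and 98.6 CPM in control low-UMI barcodes. Jun, the AP-1 subunit, had 3479 CPM in members, against 2524 CPM in the rest and 4767 CPM in control low-UMI barcodes. Measured against the control low-UMI barcodes, the list was lower, at a median of -0.35. The 11 histone genes were mixed, 6 higher and 5 lower. Hist1h1d, a linker histone, was at 273 CPM in members, 131 CPM in the rest and 50.9 CPM in control low-UMI barcodes, whereas H3f3a, a replacement histone, was at 224, 514 and 477 CPM. Of the 7 measured p53 targets 3 were higher and 4 lower and none passed 2-fold, at a median of -0.05 that changed sign under 6 of the alternative settings. The 8 chemokine genes had 3 higher and 5 lower, 4 by 2-fold, at a median of -0.59. Of 4 measured type I interferon genes 2 were lower by 2-fold, and of 5 proliferation genes 1 was higher and 2 lower by 2-fold. Over all genes 12.1% were higher and 15.1% lower by 2-fold. Calls in lists this small are a description only.

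Genes that set the cKO library apart from the control library in earlier results had mixed levels in members. The following genes were taken from those results and are not independent of them. Cdkn1a, which encodes the cell-cycle inhibitor p21, had 78.2 CPM in members and 80.8 CPM in the rest, against 19.1 CPM in control low-UMI barcodes. Lyz2, the macrophage lysozyme, had 440 CPM in members and 1276 CPM in the rest, against 240 CPM in control low-UMI barcodes. Apoe, the lipoprotein of activated microglia, had 242 and 536 CPM, against 151 CPM. For these 3 genes the members lay above the control low-UMI barcodes and at or below the rest of their own library.

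Fos, the AP-1 subunit, had 506 CPM in members and 346 CPM in the rest, against 1622 CPM in control low-UMI barcodes. Hspa5, the chaperone BiP, had 310 CPM in members and 276 CPM in the rest, against 920 CPM in control low-UMI barcodes. Endoplasmic reticulum chaperones as a list had a median log2 ratio of -1.84 against the control low-UMI barcodes. Of the 14 genes 10 were lower by 2-fold, against 14.0% of all genes in that comparison. Cx3cr1, the gene whose regulatory sequences drive CreER, had 1753 CPM in members and 2817 CPM in the rest, against 5369 CPM in control low-UMI barcodes. The level in members was nearer to the rest of the cKO library than to the control barcodes of like depth for Cdkn1a, Fos, Hspa5 and Cx3cr1, and nearer to the control barcodes for Lyz2 and Apoe. Atg7 had 34.8 CPM in members and 17.3 CPM in the rest, against 16.5 CPM in control low-UMI barcodes. Reads near the 3-prime end of the transcript do not show whether the floxed part was deleted, so these values do not check the genotype.

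The lower ribosomal and higher Malat1 shares were a property of most members and not of a few. By barcode, ribosomal protein genes took under 2.5% of UMIs in 1301 members (82.6%), 2.5% to under 4% in 87 and at least 4% in 188 (11.9%). In the rest of the cKO library 102 barcodes were under 2.5% and 6969 were at 4% or above, and in the control low-UMI barcodes 15 were under 2.5% and 5433 at 4% or above. The members thus contained a main body with few ribosomal transcripts and a smaller one with a ribosomal share in the range of the other barcodes. Whether the smaller body was like those barcodes in other genes was not tested.

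At an equal 1000 UMIs the median ribosomal protein share was 1.3% in members, against 7.1% in the rest and 6.3% in control low-UMI barcodes. Of the thinned members 86.4% lay below 4.0%, the 5th percentile of the rest. The Malat1 share had a median of 11.9% in members, against 4.1% in the rest and 4.1% in control low-UMI barcodes, and 79.7% of members lay above the 95th percentile of the rest. The Gm42418 share had a median of 6.2% in members, against 2.6% in the rest and 1.7% in control low-UMI barcodes. Members had a median of 630 genes at that depth, against 668 in the rest and 658 in control low-UMI barcodes.

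Detection of single genes at 1000 UMIs went the same ways. Srrm2, a scaffold of nuclear speckles, was detected in 75.1% of members (72.4 to 77.7), against 53.1% of the rest and 53.2% of control low-UMI barcodes (82.1%, 95.7% and 65.0% without thinning). Rplp1 was detected in 44.1% of members (41.1 to 47.2), against 94.5% of the rest and 90.7% of control low-UMI barcodes (50.1%, 99.5% and 95.8% without thinning). Cdkn1a was detected in 5.81% of members (4.46 to 7.41) and 5.91% of the rest, against 1.48% of control low-UMI barcodes (7.36%, 16.8% and 1.98% without thinning). At the full depth of the libraries Srrm2 was detected in a larger share of the rest than of members, and at equal depth in a smaller share.

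**Figure D3:**
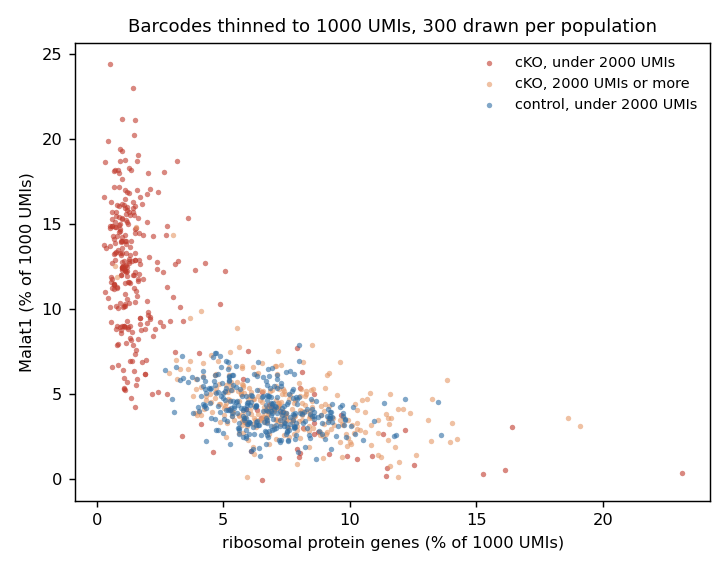
Share of 1000 UMIs on ribosomal protein genes (horizontal axis, percent) and on Malat1 (vertical axis, percent), with 1 point per barcode and 300 barcodes drawn per population after thinning to 1000 UMIs; points are offset by up to 0.04 to show overlaps. Red points are cKO members, orange points the rest of the cKO library and blue points control low-UMI barcodes. Most members lie at a ribosomal share near their median of 1.3% and a Malat1 share near 11.9%, apart from the other populations, which overlap.

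Members also kept together when profiles over many genes were compared at equal depth. Among the 15 nearest neighbours of each thinned cKO barcode on 20 principal components, computed without mt- genes and the given markers, 76.0% of the neighbours of members were members, against 2.83% of the neighbours of the rest. Members made up 12.4% of the barcodes searched. For 843 members (81.6%) most neighbours were members, which was so for 83 barcodes of the rest. When rRNA-like loci, nuclear lncRNAs, ribosomal protein genes and respiratory genes were also left out, 73.5% of members' neighbours were still members. The separation is a description of 1 library and carries no test.

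The ratio between members and the rest followed the exonic length of the gene. Of the 7421 genes tested, 7418 matched GENCODE M21, and across 7204 protein-coding genes Spearman's rho between exonic length (the union of all annotated exons) and the log2 ratio was 0.70. Genes share the same barcodes and are not independent, so no p is given. Against the control low-UMI barcodes rho was 0.68, and in the control library's own split it was -0.04. Genomic span had a rho of 0.51, GC content -0.18 and the number of runs of 10 or more A 0.16.

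Of 154 protein-coding genes with up to 1000 exonic bases, 108 were at least 2-fold lower in members and 3 at least 2-fold higher, at a median log2 ratio of -1.42. The median was -1.18 for 684 genes of 1000 to 2000 bases, -0.76 for 913 genes of 2000 to 3000 bases and -0.18 for 1876 genes of 3000 to 5000 bases. It was 0.35 for 1941 genes of 5000 to 8000 bases and 0.77 for 1636 genes above 8000 bases, of which 482 were at least 2-fold higher and 2 at least 2-fold lower. Without ribosomal protein and respiratory genes the shortest class was at -1.33 and the longest at 0.77. The giant linker genes fall in the longest class, with 41155 exonic bases for Dst and 31402 for Macf1, and Rplp1 and Tyrobp in the shortest, with 499 and 667.

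**Figure D4:**
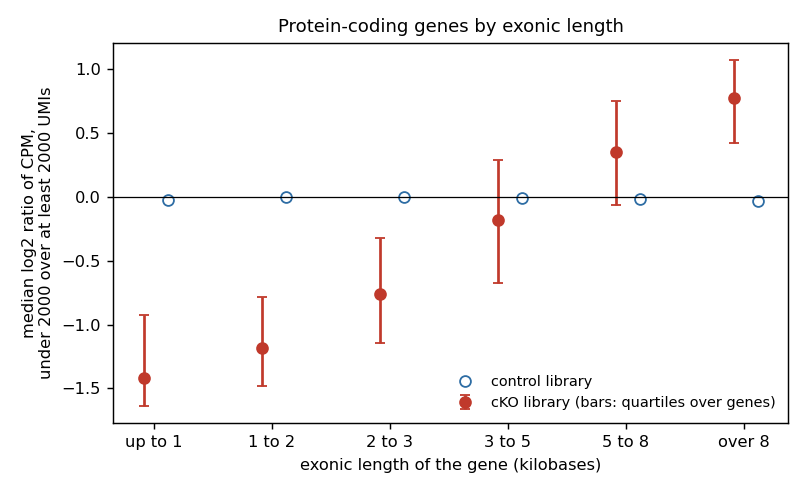
Median log2 ratio of CPM between barcodes under 2000 UMIs and barcodes with at least 2000 UMIs (vertical axis) for protein-coding genes in classes of exonic length in kilobases (horizontal axis). Red points with quartile bars over genes are the cKO library and open blue points the control library. The cKO medians climb with length between -1.42 and 0.77, and the control medians stay within 0.03 of 0.

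At a like transcript length, genes with and without runs of A had medians within 0.2 of each other. Among genes with a longest transcript of 3000 to 5000 bases, the median log2 ratio was 0.24 for the 588 with at least 1 run of 10 or more A and 0.25 for the 1977 with none. Above 5000 bases it was 0.62 for the 703 with a run and 0.71 for the 1144 without. At 2000 to 3000 bases it was -0.22 for 181 genes with a run and -0.38 for 1193 without, and up to 2000 bases it was -0.91 for 88 genes with a run and -1.07 for 1330 without. Noncoding classes were higher than protein-coding genes as a whole: 25 of 28 sense-intronic loci were at least 2-fold higher, at a median of 1.58, as were 28 of 52 antisense genes at 1.06 and 38 of 71 lincRNAs at 1.03. Protein-coding genes had a median of 0.09. Sense-intronic and antisense loci overlap other genes, so their UMIs may be shared with a host gene or its partner.

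The make-up of the cKO barcodes changed in steps along the UMI count. Ribosomal protein genes took 1.91% of UMIs in the 129 members under 800 UMIs, 2.17% in the 460 of 1000 to 1249 UMIs, 2.58% in the 180 of 1500 to 1749 UMIs and 3.89% in the 108 between these and the limit of 2000 UMIs. In the rest it was 5.49% in the 163 barcodes of 2000 to 2499 UMIs, 6.53% in the 291 of 2500 to 2999 UMIs and 7.81% in the 2522 of 5000 to 6999 UMIs. Gm42418 ran the other way, with 8.90% of UMIs under 800 and 5.25% in the bin just under 2000 UMIs, and 2.54% at 5000 to 6999 UMIs. Malat1 was at its highest within the members, with 11.8% in the bin up to 1499 UMIs, and lower in the smallest members, with 8.78% under 800 UMIs. In the control library, Gm42418 stayed between 1.35% and 1.90% and ribosomal protein genes between 6.11% and 6.67% over all bins of at least 20 barcodes.

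**Figure D5:**
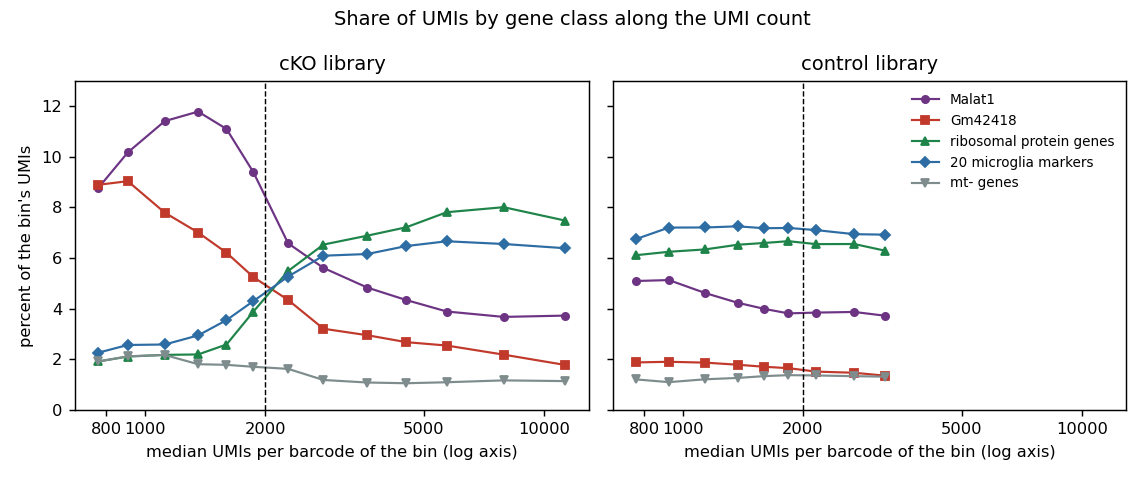
Percent of UMIs on each gene class (vertical axis) by the median UMIs per barcode of each UMI bin (horizontal axis, log scale) in the cKO library, left, and the control library, right; bins of under 20 barcodes are not drawn and the dashed line marks 2000 UMIs. In the cKO library Malat1 and Gm42418 exceed ribosomal protein genes and the 20 microglia markers below 2000 UMIs and both lie under them from 2500 UMIs on, and in the control library the lines run nearly flat.

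The 871 cKO barcodes that failed the gene limit alone had the profile of the members in part. They had 11.9% of UMIs on Gm42418, 7.77% on Malat1, 2.54% on ribosomal protein genes and 2.61% on the microglia markers. In members these shares were 7.42%, 10.8%, 2.40% and 2.97%. Gm42418 was thus higher still than in members, Malat1 was lower and the others were close. In the 380 control barcodes that failed the gene limit alone, the same shares were 3.17%, 9.37%, 3.60% and 5.08%. Among the smallest control barcodes, 238 with under 500 UMIs and no gene limit, Malat1 took 11.6% and ribosomal protein genes 2.40%, which is near the values of members, with Gm42418 at 3.73% and microglia markers at 3.82%. The control library thus held barcodes with high Malat1 and low ribosomal shares, at UMI counts below those of any member.

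A few members were of another kind. Of the 1576 members 12 (0.761%, interval 0.394 to 1.33) had at most 2 of the 20 microglia markers, against 6 of 7298 barcodes in the rest and 6 of 5732 in the control low-UMI barcodes. These were singled out after the values were seen. They held 70 of the 73 UMIs of Fabp7 in all members, a lipid-binding protein of radial glia, astrocytes and precursors, and Fabp7 was detected in 12 of the 12. Ptprz1 and Pdgfra, both markers of oligodendrocyte precursors, had 32 of 36 and 15 of 15 of the members' UMIs there. They were detected in 10 and 9 of the 12 barcodes. Slc1a2, an astrocyte glutamate transporter, had 16 of 21 UMIs there, in 4 of the 12 barcodes. Whether the 12 were of 1 cell type was not tested. The 20 microglia markers had 6 UMIs of 13387 in these barcodes, which follows from how they were chosen. Without them the counts of genes past 2-fold in members were 896 higher and 1161 lower, against 896 and 1123 with them.

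Ttr, the thyroid hormone carrier secreted by choroid plexus, was likewise held by a few barcodes. In members 103 barcodes (6.54%) had a Ttr UMI, and 14 with at least 10 held 95.3% of the 2098 UMIs, the highest with 408. In the rest 486 barcodes (6.66%) had a UMI, and 23 with at least 10 held 96.5% of 14223, the highest with 3272. These shares of barcodes are at unlike depth. At 1000 UMIs Ttr was detected in 5.91% of members (4.55 to 7.52), against 1.48% of the rest and 1.09% of control low-UMI barcodes. With the Ttr UMIs of barcodes with at least 10 taken out and the total kept, Ttr was at 52.5 CPM in members. It was at 13.1 CPM in the rest and 10.4 CPM in control low-UMI barcodes. A cut of 10 UMIs is a larger share of a member's UMIs than of those of a barcode of the rest.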

How the data were processed

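Single-cell libraries were made with a droplet 3-prime kit from sorted microglia, with 1 library per genotype. The deposited matrices hold raw UMI counts for each gene in each barcode, and their headers name Cell Ranger 6.1.0 as the tool the authors used. Seurat and the mm10 build are named in the submitters' processing notes, and whether intronic reads were counted is not given in the sources used here. The bulk forebrain table of the series was not used here. Counts were summed per population with Python 3.11.15, NumPy 2.4.6, SciPy 1.17.1 and pandas 2.3.3, and scaled to 1000000 (CPM). Since each group is 1 library, there is no test: ratios carry exact 95% conditional binomial intervals and shares Clopper-Pearson intervals. Depth is the UMI count of each population, and a count of 0 allows up to 3 counts. A gene entered with at least 20 CPM on 1 side and was called at 2-fold. Rows that shared a symbol were reduced to the identifier with more UMIs. Barcodes were thinned without replacement, and neighbours computed with scikit-learn 1.9.0. Code was tested on simulated data. The members and the 41 gene lists were chosen with earlier results of these data known. Named genes were the given markers, the 12 highest and 12 lowest ratios by interval bound among genes with at least 50 CPM on 1 side without mt- genes, and up to 4 members of each list, plus genes stated as chosen after seeing values. P2ry12, Srrm2 and marker genes of cell types were named from the fixed lists.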

Additional observations from a re-analysis of the deposited data

Results flagged for a closer look

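The ratio of members to the rest ran opposite ways in the cKO and control libraries for a pair of genes of other cell types. Mt3, a metallothionein of astrocytes and neurons, was at a ratio of 3.39 between members and the rest in the cKO library, against 0.0833 between low-UMI and other barcodes in the control library. Its levels were 21.4 CPM in members and 6.31 CPM in the cKO rest, against 2.05 CPM and 24.6 CPM in the control library. Ttr was at 3.02 in the cKO library, against 0.145 in the control library. The difference between the libraries was not tested, and few barcodes hold most of the Ttr UMIs in each.

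Gm42418 took 11.9% of UMIs in the cKO barcodes with under 500 detected genes, which are outside the comparisons of members and the rest, against 3.17% in the control barcodes that failed the same limit.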

How the results depend on the processing

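Each result was recomputed under up to 14 alternatives; of 825 values 676 kept within their margin, 149 moved and 0 called values reversed direction; the median of the p53 list, near 0, changed sign under 6. A UMI limit of 3000 gave 307 genes higher and 159 lower by 2-fold and 3 gene lists with a median past 2-fold, against 14 of 27 lists with the limit of 2000. Leaving mt- genes and rRNA-like loci out of the total gave 9 such lists of 24. A minimum of 50 CPM gave 571 genes higher and 811 lower. No CPM minimum gave 3900 higher and 1581 lower, so that higher genes were 71.2% of the calls, while lower genes outnumbered higher ones (1123 against 896) with the minimum of 20 CPM. Members were 14.5% of barcodes with a UMI limit of 1500 and 22.9% with 3000, 25.1% with at least 200 genes, 7.49% with at least 750 genes and 16.6% with at most 5% mt- UMIs. The cause of these moves was not tested, other than that the limits define the members. Leaving out the 12 barcodes with at most 2 microglia markers was chosen after seeing the data. No paired analysis was possible because the result comes from no test, with 1 library per genotype, so no replicate block could be fitted. With a median of 1127 UMIs per member, a gene without a UMI in 1 barcode is not shown to be absent from it.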
